A study of Mus musculus with 6 samples.

Results

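Canonical PRC1 was followed through 9 genes, chosen by name as subunits of the complex: the PCGF ring-finger genes Bmi1 and Pcgf2, the chromodomain genes Cbx2, Cbx6, Cbx7 and Cbx8, and the polyhomeotic genes Phc1, Phc2 and Phc3. All 9 were found, each under 1 Ensembl identifier, among the 17312 genes of the deposited table, and all 9 passed the filter on low values. RNA had been sequenced from 6 mouse leg tumors, 3 from mice with a Cre-lox inducible SS18-SSX1 allele and 3 from mice with a Cre-lox inducible SS18-SSX2 allele. Both alleles encode a fusion oncoprotein of synovial sarcoma, which joins SS18, a subunit of BAF chromatin remodelers, to part of an SSX protein. Both groups had received TATCre, a purified cell-entering form of the Cre enzyme, by injection into pre-tibial soft tissue of the leg, with harvest of the tumors about 1 year later. A protein given this way can act on any cell it enters at the site, and the labels name no cell type. Tumors without a fusion and normal tissue were not analysed here, so each value is compared only between the 2 fusions. No label states whether each tumor is from its own mouse, and p-values then measure the spread between these samples, which may be technical.

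Polycomb repressive complex 1 (PRC1) places a ubiquitin on histone H2A through a ring-finger pair, in which RING1 or RNF2 is the ligase and a PCGF protein is its partner. Canonical PRC1 holds PCGF2 or BMI1 (also called PCGF4) and is brought to chromatin by a CBX protein, whose chromodomain reads the histone H3 methylation placed by PRC2, while a PHC protein polymerizes through its SAM domain and compacts and clusters the bound genes. Variant PRC1 carries RYBP or YAF2 in place of CBX and PHC, often but not always with other PCGF proteins. In synovial sarcoma cells the SSX part of the fusion is known to bring BAF complexes to nucleosomes that carry PRC1's mark.

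All 9 genes were expressed in all 6 tumors. Bmi1 and Cbx8 had lower values in every SS18-SSX2 tumor than in any SS18-SSX1 tumor, with a mean 3.41-fold lower for Bmi1 and 2.13-fold lower for Cbx8. The other 7 genes overlapped between the genotypes. None of the 9, Bmi1 and Cbx8 included, passed the test across all 13873 tested genes (limma on log2(FPKM + 1), Benjamini-Hochberg adjusted p under 0.05). Of those genes 0.0649% passed, 0.0216% with SS18-SSX2 lower and 0.0432% with SS18-SSX2 higher. All genes that passed with SS18-SSX2 lower were Y-linked (Ddx3y, Uty and Kdm5d), and the X-linked Xist was among those that passed with SS18-SSX2 higher. Before adjustment 2 of the 9, the same Bmi1 and Cbx8, had p under 0.05, as did 4.97% of all tested genes, or 1.71% with SS18-SSX2 lower. The genotypes did not overlap for 8.72% of all tested genes, and for 3.76% with SS18-SSX2 lower. FPKM, the deposited unit, is the number of fragments scaled to gene length and library size, so levels of different genes can be set side by side.

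The promoters of Bmi1 and Cbx8 are shown because these are the members whose genotypes did not overlap. They come from RefSeq on GRCm38.p6, 5′ to 3′ on the gene's strand, and only bases before the start site and outside annotated exons are given. RefSeq windows were matched for 8 of the 9 members, all but Cbx2. Capitals mark CACGTG, the E-box core, whose letters are the same on both strands.
Bmi1, chr2:18676768-18677017, + strand: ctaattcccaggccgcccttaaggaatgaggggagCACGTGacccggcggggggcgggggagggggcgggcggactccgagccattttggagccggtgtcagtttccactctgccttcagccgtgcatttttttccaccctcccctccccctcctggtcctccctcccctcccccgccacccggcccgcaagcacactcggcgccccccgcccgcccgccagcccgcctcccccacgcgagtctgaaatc
Cbx8, chr11:119040970-119041163, - strand: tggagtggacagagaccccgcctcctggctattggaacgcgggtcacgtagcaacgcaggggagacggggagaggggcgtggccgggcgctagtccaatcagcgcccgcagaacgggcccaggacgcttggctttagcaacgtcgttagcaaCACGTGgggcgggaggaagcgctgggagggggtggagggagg
Both stretches are rich in G and C, at 70.4% and 67.5%, against a median of 52.4% over the 250 bases before the start in 32851 RefSeq windows. The E-box core was found in the 250 bases before a start site of 6 of the 8 matched members, Bmi1, Pcgf2, Cbx6, Cbx8, Phc2 and Phc3, and not in those of Cbx7 and Phc1. For Cbx6 and Phc1 all 250 bases searched lie in annotated exons, so the Cbx6 match does too. The E-box core was found for 6.86% of all 27025 genes with a window. It was in 8.58% of the windows with at least 5 CpG, the fewest in a member window that held it. That fewest was set by Pcgf2 and lies below the median of 6 over all windows. The other member windows with the motif held 12 to 22 CpG, so the 8.58% is not matched to their CpG content. The motif was picked after the sequences were seen. Of the other motifs searched on both strands, TGACGTCA stood before Cbx8 only and before 1.77% of all genes. That match lies in the 56 searched bases of Cbx8 that are annotated as exon, outside the stretch printed. The NRF1 palindrome stood before Phc3 only and before 0.877% of all genes. GGGCGG stood before 7 of the 8 members and 35.4% of all genes, and CCAAT before 3 of the 8 and 37.5%. The E-box's surroundings in 3 members whose genotypes overlapped are shown for comparison with Bmi1 and Cbx8.
Pcgf2, chr11:97699763-97699802, - strand: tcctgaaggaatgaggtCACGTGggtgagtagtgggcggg
Phc2, chr4:128654628-128654667, + strand: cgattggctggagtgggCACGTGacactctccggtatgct
Phc3, chr3:30969475-30969514, - strand: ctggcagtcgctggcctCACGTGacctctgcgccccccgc
The motif thus stood before genes whose values overlapped between the genotypes as well as before Bmi1 and Cbx8. A match is a description of the letters, and no binding was measured.

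Bmi1 encodes the PCGF subunit best known for keeping stem cells dividing through repression of the Cdkn2a locus. It lies on chromosome 2 from 18677018 to 18686629 (GRCm38, ENSMUSG00000026739, protein coding). Bmi1 had 7.79, 9.21 and 11.8 FPKM with SS18-SSX1 (tumors 1, 2 and 3, the order used throughout) against 3.60, 3.11 and 1.75 FPKM with SS18-SSX2. The lowest SS18-SSX1 tumor thus stood above the highest SS18-SSX2 tumor by more than the SD of either group, and the 6 values span 6.76-fold, the widest span of the 9 members. The means were 9.61 ± 2.06 and 2.82 ± 0.958 FPKM (SD, n = 3), with a log2 fold change (SS18-SSX2 minus SS18-SSX1, of log2(FPKM + 1), a scale that shrinks the change of a low gene) of -1.49 (SE 0.31, 95% interval -2.21 to -0.77). The unadjusted p of 0.00153 was the 51st smallest of 13873, and the adjusted p was 0.413 (limma).

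The counting error of the 6 values did not bridge the genotypes. Between 90 and 826 reads lay behind the Bmi1 values, as worked out from the steps between low FPKM values. In the shallowest library, SS18-SSX2 tumor 2, 90 reads gave 3.11 FPKM with an exact Poisson 95% interval of 2.50 to 3.82. In SS18-SSX2 tumor 1, the highest of its group, 208 reads gave an interval of 3.13 to 4.13. In SS18-SSX1 tumor 1, the lowest of its group, 412 reads gave 7.05 to 8.57. These intervals cover counting error only. Commd3, the gene that ends 786 bases before the Bmi1 start on the same strand, was chosen after its values were seen. It had 17.3, 14.8 and 22.3 FPKM with SS18-SSX1 against 14.6, 11.4 and 11.1 FPKM with SS18-SSX2. Its groups did not overlap either, though only by the step from 14.6 to 14.8, and it did not pass (log2 fold change -0.51, SE 0.26, limma adjusted p = 0.997). Whether counting used the strand is not stated, and no annotated exon of another gene overlaps those of Bmi1.

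Pcgf2 (also called Mel18) encodes the alternative PCGF partner in canonical PRC1 and lies on chromosome 11 from 97688823 to 97700497. It had 10.9, 13.8 and 7.74 FPKM with SS18-SSX1 against 7.48, 9.34 and 11.9 FPKM with SS18-SSX2. The groups overlapped almost wholly, with means of 10.8 ± 3.03 and 9.56 ± 2.21 FPKM (SD, n = 3). The log2 fold change was -0.15 with a 95% interval of -0.84 to 0.55 (limma adjusted p = 0.997), which leaves room for a change of either sign.

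The makeup of the pair varied between tumors. Its shares, ratio and sum are worked out from the Bmi1 and Pcgf2 values given above, so they are not a second result. Bmi1 made up 41.7%, 40.03% and 60.5% of the summed FPKM of Bmi1 and Pcgf2 with SS18-SSX1 against 32.5%, 24.97% and 12.9% with SS18-SSX2, so the shares did not overlap. Pcgf2 exceeded Bmi1 in 5 of the 6 tumors, and SS18-SSX1 tumor 3 was the exception with a Pcgf2 to Bmi1 ratio of 0.654. The ratio was 1.40 and 1.498 in the remaining SS18-SSX1 tumors and 2.075, 3.01 and 6.77 with SS18-SSX2. The summed level of the pair was 18.7, 23.0 and 19.6 FPKM with SS18-SSX1 against 11.1, 12.5 and 13.6 FPKM with SS18-SSX2. These shares are given as a description, with no test, since both genes were picked with earlier results in view.

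**Figure D1:**
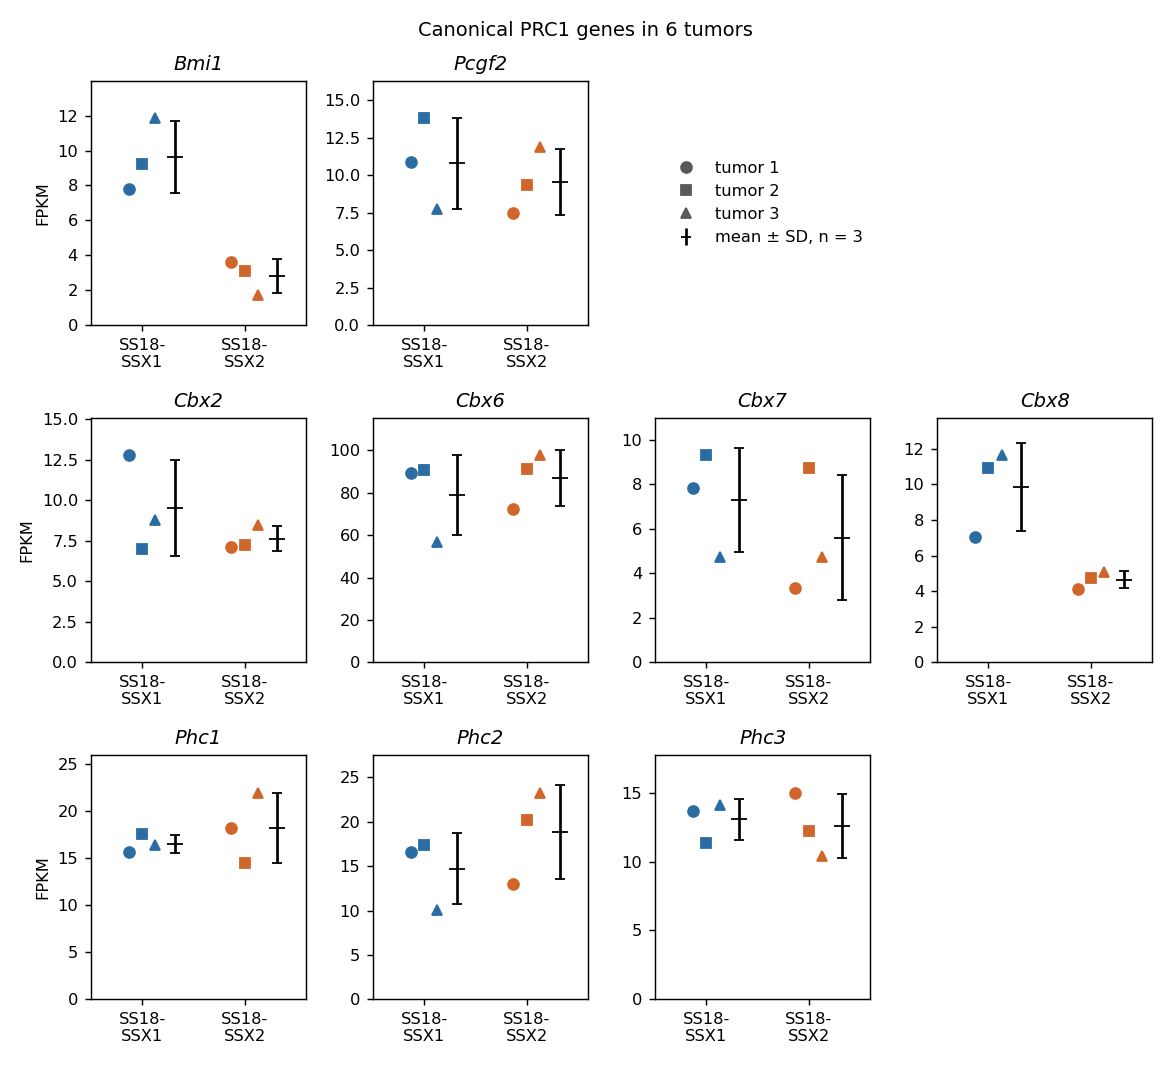
FPKM of the 9 members (vertical axes, linear and starting at 0, a different scale per gene) in the 6 tumors, by genotype, with the shape giving the tumor number and bars giving the mean and SD of 3 tumors. Only Bmi1 and Cbx8 have all 3 SS18-SSX2 tumors below all 3 SS18-SSX1 tumors.

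Among the chromodomain genes, Cbx8 encodes a CBX protein known to bind BMI1 and to repress the Cdkn2a locus. It lies on chromosome 11 from 119036305 to 119040969 (ENSMUSG00000025578). Cbx8 had 7.03, 10.9 and 11.6 FPKM with SS18-SSX1 against 4.12, 4.74 and 5.06 FPKM with SS18-SSX2. The SS18-SSX2 tumors lay close together, at 4.64 ± 0.478 FPKM, and the SS18-SSX1 tumors were spread, at 9.86 ± 2.48 FPKM (SD, n = 3). The log2 fold change was -0.92 (SE 0.28, 95% interval -1.57 to -0.27), with an unadjusted p of 0.0118 and an adjusted p of 0.737 (limma). Without both tumors numbered 2 the Cbx8 unadjusted p was 0.0741, the only setting tried with p above 0.05. Counting error did not bridge the gap between the genotypes. SS18-SSX1 tumor 1 had 344 reads and an exact Poisson 95% interval of 6.31 to 7.81 FPKM, and SS18-SSX2 tumor 3 had 267 reads and an interval of 4.47 to 5.71 FPKM.

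Cbx2, whose protein compacts nucleosomes and is known from sex development and skeletal patterning, is the neighbor of Cbx8 on chromosome 11, from 119022962 to 119031270, with 5034 bases between the genes. Cbx2 had 12.8, 6.96 and 8.77 FPKM with SS18-SSX1 against 7.11, 7.25 and 8.49 FPKM with SS18-SSX2. SS18-SSX1 tumor 1 was the highest and SS18-SSX1 tumor 2 the lowest of the 6, so the groups overlapped (log2 fold change -0.25, SE 0.29, 95% interval -0.91 to 0.41, limma adjusted p = 0.997). Without SS18-SSX1 tumor 1 the log2 fold change was -0.04. The ratio of Cbx2 to Cbx8 was 1.81, 0.637 and 0.754 with SS18-SSX1 against 1.73, 1.53 and 1.68 with SS18-SSX2, with SS18-SSX1 tumor 1 the highest of the 6.

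Cbx7, the CBX gene tied to self-renewal of embryonic stem cells, is on chromosome 15 from 79915807 to 79971119. It had 7.83, 9.29 and 4.74 FPKM with SS18-SSX1 against 3.32, 8.74 and 4.72 FPKM with SS18-SSX2. Its highest value in each genotype was in tumor 2, and the groups overlapped (log2 fold change -0.37, SE 0.39, 95% interval -1.27 to 0.53, limma adjusted p = 0.997). In both genotypes tumor 2 was also the one rich in skeletal muscle RNA, where the mean log2(FPKM + 1) of 22 muscle fibre genes was 8.32 and 7.01 against 2.40 to 3.57 in the other 4 tumors. Within each genotype tumor 2 also had the highest mean of the B and plasma cell and T cell genes and the lowest of the endothelial genes. Muscle, lymphoid and endothelial RNA thus cannot be told apart for Cbx7. The Cbx7 log2 fold change was -0.20 with the muscle level as a covariate and -0.52 without both tumors numbered 2. When 1 tumor of SS18-SSX2 was left out it was -0.11 (tumor 1) or -0.69 (tumor 2), and no setting called it. Of its 6487 annotated exon bases, Cbx7 shares 100 with Apobec3 on the opposite strand. Reads there can be told apart only if counting used the strand, which is not stated.

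Cbx6, a further chromodomain gene of the family, was the most abundant member. It had 89.4, 90.6 and 56.9 FPKM with SS18-SSX1 against 72.4, 91.1 and 97.6 FPKM with SS18-SSX2, a mean above that of 97.0% of tested genes. The groups overlapped, with means of 78.9 ± 19.1 and 87.05 ± 13.1 FPKM (SD, n = 3) and a log2 fold change of 0.16 (SE 0.30, 95% interval -0.55 to 0.86, limma adjusted p = 0.997), which was -0.06 without SS18-SSX1 tumor 3. The gene lies on chromosome 15 from 79823896 to 79834688 and shares 563 exon bases with Npcd on the same strand. Npcd had 22.04 to 44.05 FPKM and the ratio of Cbx6 to Npcd was 2.22 to 2.58 in the 6 tumors, so reads of the shared exons may have been counted for either gene. The FPKM of Cbx6 gave whole reads with a length of 6290 bases and not with its 10609 annotated exon bases, and its level per length rests on the authors' gene model.

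Cbx6 made up most of the summed FPKM of the 4 CBX genes, with 76.4%, 76.9% and 69.4% with SS18-SSX1 against 83.3%, 81.5% and 84.2% with SS18-SSX2, so its shares did not overlap, and were higher with SS18-SSX2, while its FPKM did overlap. Cbx8 made up 6.01%, 9.28% and 14.2% with SS18-SSX1 against 4.74%, 4.24% and 4.37% with SS18-SSX2, so its shares did not overlap either. The shares are not independent, since a lower share of Cbx8 raises the shares of the other CBX genes. Cbx2 took 5.91% to 10.9% and Cbx7 3.82% to 7.89% over the 6 tumors, with overlap between the genotypes. The summed CBX level was 82.04 to 117.7 FPKM with SS18-SSX1 against 86.96 to 115.9 FPKM with SS18-SSX2.

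**Figure D2:**
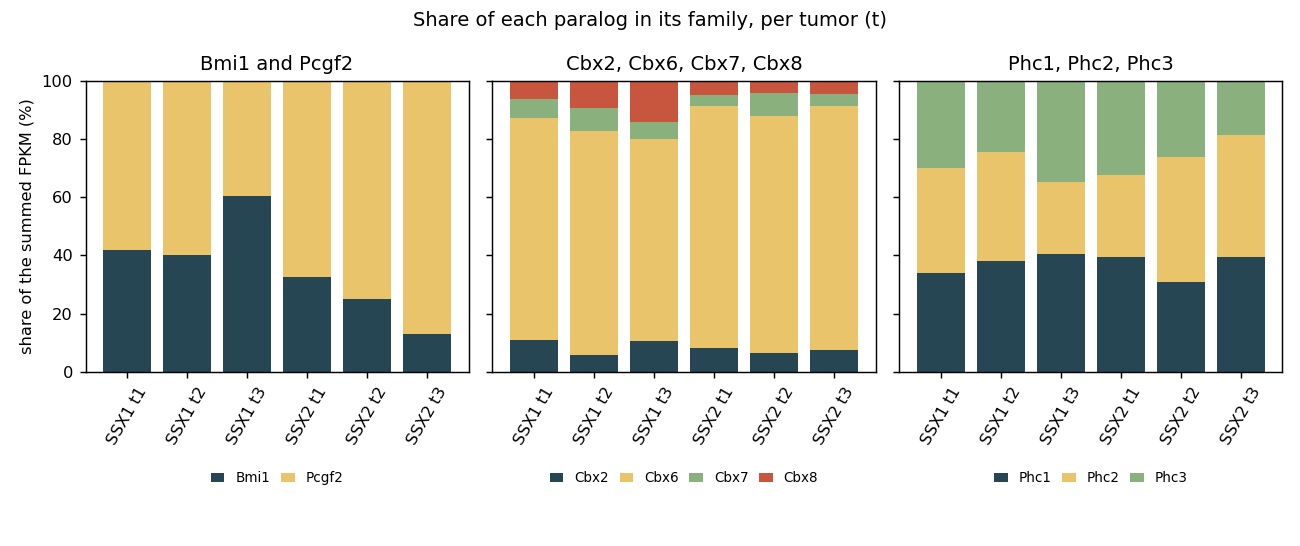
Share of each gene in the summed FPKM of its family (vertical axis, percent) in each of the 6 tumors, for the PCGF pair, the 4 CBX genes and the 3 PHC genes, where t1 to t3 are tumors 1 to 3. The Bmi1 share was 40.03% to 60.5% with SS18-SSX1 against 12.9% to 32.5% with SS18-SSX2, Cbx6 dominated the CBX genes in all 6, and no PHC gene dominated.

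The polyhomeotic genes, whose proteins polymerize through a SAM domain, were at similar levels to each other and overlapped between the genotypes. Phc1 had 15.6, 17.6 and 16.4 FPKM with SS18-SSX1 against 18.2, 14.5 and 21.98 FPKM with SS18-SSX2 (log2 fold change 0.12, SE 0.24, 95% interval -0.45 to 0.68). Phc2 had 16.6, 17.4 and 10.1 FPKM with SS18-SSX1 against 13.04, 20.2 and 23.3 FPKM with SS18-SSX2 (log2 fold change 0.34, SE 0.32, 95% interval -0.41 to 1.08). The Phc2 log2 fold change was 0.10 without SS18-SSX1 tumor 3, its lowest tumor, and 0.17 without SS18-SSX2 tumor 3, its highest, and 0.57 without SS18-SSX2 tumor 1. Phc3 had 13.7, 11.4 and 14.1 FPKM with SS18-SSX1 against 15.0, 12.2 and 10.4 FPKM with SS18-SSX2 (log2 fold change -0.06, SE 0.25, 95% interval -0.63 to 0.51). Each of the 3 had an adjusted p of 0.997 (limma), and the intervals reach to a change of about 1 log2 unit only for Phc2. Phc1 lies on chromosome 6 from 122317731 to 122340561, Phc2 on chromosome 4 from 128654702 to 128752881, and Phc3 on chromosome 3 from 30899371 to 30969415. Phc1 took 30.8% to 40.3% of the summed PHC level, Phc2 24.9% to 43.1% and Phc3 18.7% to 34.7%. The sum was 40.6 to 46.3 FPKM with SS18-SSX1 against 46.2 to 55.7 FPKM with SS18-SSX2.

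**Figure D3:**
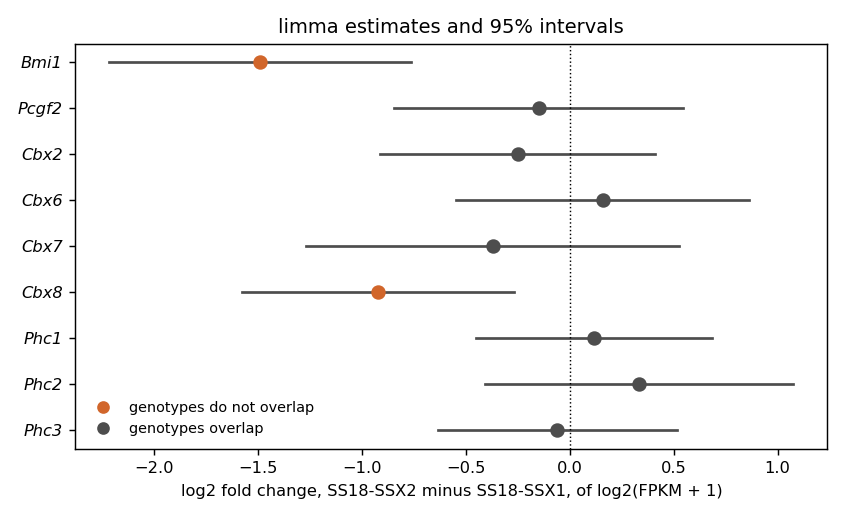
Log2 fold change of each member (horizontal axis, SS18-SSX2 minus SS18-SSX1, of log2(FPKM + 1)) with its 95% interval from limma. Only the intervals of Bmi1, -2.21 to -0.77, and Cbx8, -1.57 to -0.27, leave out 0 before adjustment for the number of genes tested.

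Ordered by the mean over the 6 tumors, Cbx6 came first at 82.99 FPKM and was above the next gene in all 6 tumors. Phc1 at 17.4, Phc2 at 16.8, Phc3 at 12.8, Pcgf2 at 10.2, Cbx2 at 8.56, Cbx8 at 7.25, Cbx7 at 6.44 and Bmi1 at 6.22 FPKM followed. Each of these neighbors in the order overlapped in range, and none was above the next in more than 4 of the 6 tumors. Over all 9 members the median log2 fold change was -0.15, with 6 negative and 3 positive, and over all tested genes it was 0.01.

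The genes whose pattern over the 6 tumors was most like that of Bmi1, the member with the smallest p and the largest SD of log2(FPKM + 1) over the 6 tumors, were Dlg1 (Pearson r = 0.996), Impdh2-ps (r = 0.987) and Lacc1 (r = 0.986). Dlg1, which encodes a scaffold protein of cell junctions, had 40.4, 40.5 and 44.6 FPKM with SS18-SSX1 against 30.5, 29.5 and 24.5 FPKM with SS18-SSX2. Among the 13872 other tested genes, 114 had r above 0.9 with Bmi1, and with 6 tumors such values are a description only. Impdh2-ps is a pseudogene, and reads of its parent may have been counted for it.

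Other Polycomb genes were taken from 5 lists with 34 genes, of which 33 were tested and none passed (limma, 2 with an unadjusted p under 0.05, Bcor and Phf19). In these lists 18 had a negative and 15 a positive log2 fold change, with a median of -0.07. The genotypes did not overlap for Ring1, with SS18-SSX2 lower, and for Scmh1, Bcor, L3mbtl2 and Phf19, with SS18-SSX2 higher. Over all tested genes they did not overlap for 3.76% with SS18-SSX2 lower and 4.97% with SS18-SSX2 higher. The unadjusted p (limma) was under 0.05 for 4.97% of all tested genes. Of the ligases shared by all PRC1 forms, Ring1 had 15.3, 16.3 and 16.9 FPKM with SS18-SSX1 against 8.66, 14.98 and 14.1 FPKM with SS18-SSX2. Its groups did not overlap, by the step from 14.98 to 15.3, and its log2 fold change was -0.37 (SE 0.27, limma adjusted p = 0.997). Rnf2 had 32.8, 28.4 and 57.1 FPKM with SS18-SSX1 against 47.98, 22.1 and 25.07 FPKM with SS18-SSX2, and overlapped. Rnf2 exceeded Ring1 in all 6 tumors, by a ratio of 1.48 to 5.54.

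Of the remaining canonical PRC1 genes, the SAM domain gene Scmh1 had 6.21 ± 1.23 and 9.38 ± 0.423 FPKM (SD, n = 3) without overlap (log2 fold change 0.54, SE 0.26, limma adjusted p = 0.997), and Scml2 had 4.06 ± 1.81 and 4.59 ± 0.874 FPKM. In the variant PRC1 list 6 of 13 genes had a negative and 7 a positive log2 fold change. Bcor, the scaffold of PRC1.1, had 66.6 ± 14.5 FPKM with SS18-SSX1 against 150.3 ± 40.8 FPKM with SS18-SSX2 (SD, n = 3), without overlap (log2 fold change 1.15, SE 0.34, limma adjusted p = 0.683). Its paralog Bcorl1 had 5.36 ± 2.40 and 9.35 ± 1.90 FPKM, Pcgf5 had 1.601 ± 1.17 and 2.97 ± 0.681 FPKM, and Auts2 had 22.6 ± 5.05 and 27.7 ± 4.62 FPKM (SS18-SSX1 first), each with overlap.

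In the PRC2 list 7 of 11 genes had a negative and 4 a positive log2 fold change. Phf19, an accessory subunit that helps bring PRC2 to its target genes, had 0.925, 1.07 and 1.58 FPKM with SS18-SSX1 against 4.21, 2.73 and 4.38 FPKM with SS18-SSX2, without overlap (log2 fold change 1.12, SE 0.30, limma adjusted p = 0.602). Eed, the subunit that reads PRC2's own mark, had 16.4 ± 6.77 and 11.6 ± 2.39 FPKM, and the histone chaperones Rbbp7 and Rbbp4 had 58.8 ± 5.86 and 48.9 ± 5.30 FPKM and 32.3 ± 4.08 and 33.3 ± 7.22 FPKM (SD, n = 3). Of the genes that remove the ubiquitin or help to, Bap1 had 30.2 ± 3.60 and 25.7 ± 2.15 FPKM and its partner Asxl1 17.1 ± 4.39 and 25.9 ± 4.21 FPKM, the protease Usp16 had 7.46 ± 1.21 and 5.70 ± 1.08 FPKM, and none of the 5 tested passed. Asxl3 was in the table but did not pass the filter on low values.

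Cdkn2a, the tumor suppressor locus that BMI1 and CBX8 are known to repress, had 21.6, 2.11 and 2.53 FPKM with SS18-SSX1 against 12.8, 43.05 and 29.4 FPKM with SS18-SSX2. SS18-SSX1 tumor 1 stood above SS18-SSX2 tumor 1, so the groups overlapped, and Cdkn2a did not pass (log2 fold change 2.07, SE 0.78, limma adjusted p = 0.889). Within SS18-SSX1, tumor 1 had the most Cdkn2a and the least Bmi1 and Cbx8, while within SS18-SSX2 the tumor with the most Cdkn2a, tumor 2, had neither the least Bmi1 nor the least Cbx8. The neighboring Cdkn2b had 9.27, 2.66 and 2.09 FPKM and 4.40, 12.9 and 6.40 FPKM in the same order of tumors.

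**Figure D4:**
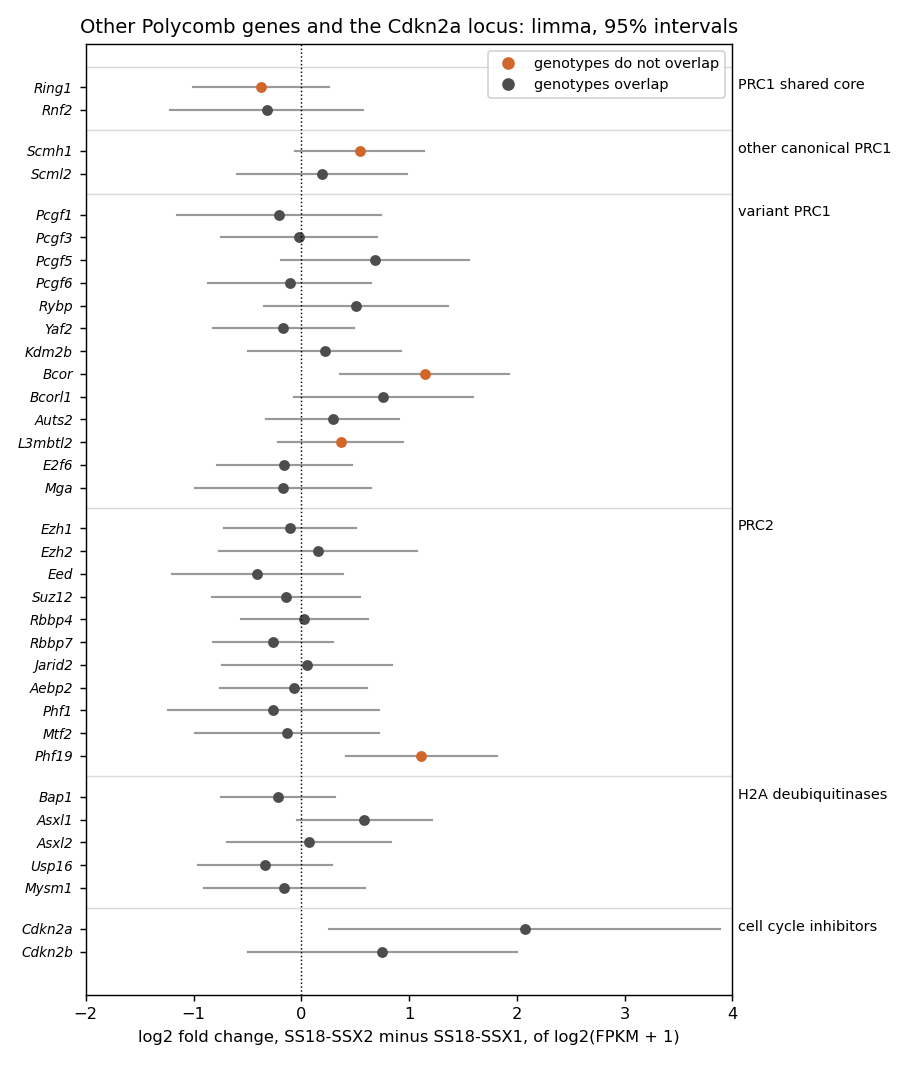
Log2 fold change of 33 other Polycomb genes and of Cdkn2a and Cdkn2b (horizontal axis, SS18-SSX2 minus SS18-SSX1, of log2(FPKM + 1)) with 95% intervals from limma. The intervals of Bcor, Phf19 and Cdkn2a leave out 0 before adjustment, all on the positive side, and no gene passed after it.

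The tumors differed in RNA of other cells and in their reads. Libraries held 7285853 to 17546227 reads, the fewest in SS18-SSX2 tumor 2. Besides the muscle signal of the tumors numbered 2, the mean log2(FPKM + 1) of 8 mast cell genes was 7.14 in SS18-SSX1 tumor 3 and 1.27 to 3.21 in the other 5, and no mast cell marker was at 0 in any tumor. That tumor had the highest Bmi1 and Cbx8 and the lowest Cbx6 and Phc2 of the 6, and without it the log2 fold change was -1.34 for Bmi1 and -0.80 for Cbx8. With the muscle level as a covariate it was -1.47 for Bmi1 and -0.88 for Cbx8, and without both tumors numbered 2 it was -1.58 and -0.85. The mean of 12 cell cycle genes was 2.43 to 3.23 with SS18-SSX1 against 3.01 to 4.38 with SS18-SSX2. Macrophage genes had 2.22 to 4.29 and 3.30 to 4.88, and endothelial genes 1.70 to 3.53 and 2.11 to 3.59. B and plasma cell genes had 0.311 to 1.63 and 0.541 to 3.99, with the highest value in SS18-SSX2 tumor 2, and T cell genes 0.0966 to 0.876 and 0.130 to 1.38. The part of cell cycle, macrophage, endothelial and lymphoid RNA in the Bmi1 and Cbx8 values was not tested. The 6 synovial sarcoma markers, Tle1, Bcl2, Sox2, Twist1, Vim and Igf2, were above 0 in all 6 tumors, with means of 4.58 to 5.36 and 5.24 to 5.49. They did not move together. Sox2 had 31.1 to 40.7 FPKM with SS18-SSX1 against 9.55 to 21.3 with SS18-SSX2. Tle1 had 23.3 to 25.7 FPKM against 29.8 to 37.0, and the rest overlapped. Neither Sox2 nor Tle1 passed (limma adjusted p = 0.681 and 0.997). In such bulk samples fewer cells that express a gene and less of its RNA per cell cannot be told apart. The Y-linked Ddx3y had 28.2 to 35.2 FPKM with SS18-SSX1 against at most 0.0148 FPKM with SS18-SSX2, and no label states the animals' sex, so the sex that this pattern marks and the genotype cannot be told apart for any member.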

How the data were processed

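RNA-seq of 6 tumors was available as 1 table of FPKM values that the authors deposited, with 1 column per tumor. Per the labels' protocols, snap-frozen tumor gave total RNA (Qiagen RNeasy), depleted with Ribo-Zero for the libraries. Novoalign 2.08.03 and mm10 are named, with no role, per the submitters' processing notes; for the counting tool, gene models and strand handling: not given in the sources used here. Columns were matched to tumors by the sample descriptions and identifiers to GENCODE M21 (17029 of 17312 matched).

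Genes with at least 1 FPKM in at least 3 tumors (13873) entered limma 3.58.1 (R 4.3.3) as log2(FPKM + 1) (trend, two-sided, Benjamini-Hochberg over all tested genes, threshold 0.05), after a test on simulated data. Depth was recovered from single-exon genes: 68.7% to 72.4% of low values came out whole within 0.02 reads. For Cbx6 and Phc3 whole reads came with a fitted, not the annotated, length. Named genes were the 9 members, up to 3 genes with the smallest p and 2 with the highest mean in each of 6 lists (5 of Polycomb genes and 1 of Cdkn2a and Cdkn2b), and the 3 genes with the highest Pearson r to Bmi1. Commd3, L3mbtl2, Asxl3, marker, overlapping and sex-linked genes were named outside this rule. Of the genes it names, 1 is not reported here. The members, lists and tests were chosen with earlier results of these data known. Alternatives were other pseudocounts, filters, scalings and limma options, the replicate block, and tumors left out. Other software: matplotlib 3.10.9, numpy 2.4.6, pandas 2.3.3 (Python 3.11.15).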

Additional observations from a re-analysis of the deposited data

How the results depend on the processing

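The 9 members and the genes of the other 6 lists were fitted under 18 other settings, where they passed the filter of the setting. Of the settings, 2 (without both tumors numbered 2, and the muscle level as a covariate) were added after the data were seen. None of these genes passed in any setting in which it was fitted. List genes with a mean under 5 FPKM, Phf19 and Pcgf5 among them, were not fitted under the filter at that mean. Asxl3 was fitted only with no filter. The Bmi1 log2 fold change ran from -1.77 to -1.27 (limma adjusted p from 0.353 to 0.99997, unadjusted p under 0.05 in 18 of 18) and that of Cbx8 from -1.13 to -0.80 (adjusted p from 0.587 to 0.99997, unadjusted p under 0.05 in 17 of 18). Members near 0 changed sign: Cbx6 ran from -0.058 (without SS18-SSX1 tumor 3) to 0.28 when 1 tumor was left out, Pcgf2 from -0.35 to 0.031 (without SS18-SSX1 tumor 2), Phc1 from -0.023 (without SS18-SSX2 tumor 3) to 0.26, and Phc3 from -0.19 to 0.057 (without SS18-SSX2 tumor 3). Pcgf2 was also 0.035 without both tumors numbered 2 and Phc3 0.0096 after rescaling to TPM. The count of all genes called, 9, was 5 with a pseudocount of 0.1, 4 with the replicate block and 20 without both tumors numbered 2, and from 3 (without SS18-SSX2 tumor 3) to 11 when 1 tumor was left out; the cause was not tested. Of the 9 calls 6 were higher and 3 lower in SS18-SSX2, against 3 and 3 with quantile or upper quartile scaling and 3 and 4 with TPM. Of the same-numbered tumors the deviations from the group means correlated at 0.38, 0.31 and -0.28 across genes, and tumors 1 and 2 of each genotype, but not tumors 3, correlated best with their own number. Tumors 1, tumors 2 and tumors 3 each also share a first letter across the genotypes in the labels, followed by differing numbers for tumors 1. The meaning of these letters is not stated, and the tumors were not treated as pairs. With the replicate block the adjusted p was 0.596 for Bmi1 and 0.658 for Cbx8, and no call of a member changed. Depth was lowest for Bmi1 in SS18-SSX2 tumor 2, with 90 reads.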
